A study of Mus musculus with 9 samples.

Results

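The 28 genes described here encode enzymes that build cholesterol and the proteins that sense, regulate and move it. They were chosen by name from the 55401 genes of the table, and each name matched 1 row. They comprise 18 enzymes of synthesis, 5 genes of the SREBP system and 5 genes of sterol transport or lipid metabolism linked to it. K7M2 cells, an established osteosarcoma line of the mouse with the genotype WT, were either left untreated, given mouse platelets, or given platelets labelled (A/R). The labels do not spell out that abbreviation. Each of the 3 groups has 3 RNA-seq libraries, 9 in all. Every group was grown in DMEM with fetal bovine serum. Titles give 24 h for all libraries, whereas the treatment labels give 24, 25 and 26 h for platelet replicates 1 to 3 and 27, 28 and 29 h for (A/R) platelet replicates 1 to 3, so that (A/R) and the labelled hours cannot be told apart. Whether replicates came from separate cultures is not given, so each p-value below reflects only how far these libraries scatter, and that scatter may be technical.

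Cholesterol is made from acetyl-CoA by way of HMG-CoA, mevalonate, isoprenoid units, squalene and lanosterol. The transcription factor SREBP2 drives the genes of this route. When membranes hold little sterol, SCAP escorts SREBP from the endoplasmic reticulum to the Golgi, where proteases release its active part, and when sterol is plentiful INSIG proteins hold SCAP back. Several of the enzymes, INSIG1 and the sterol carrier STARD4 are known SREBP2 targets, and in tumour cells the route also supplies isoprenoids for protein prenylation.

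SREBP binds sterol regulatory elements, usually beside sites for NF-Y, which binds CCAAT boxes, or Sp1. The promoters below are shown to let these boxes be seen in 5 of the members whose RNA fell with (A/R) platelets. Each of these 5 holds a CCAAT box, which not every member that fell did. Sequences are from RefSeq (GRCm38.p6), end before the start site and any annotated exon, and run 5′ to 3′ on the strand of the gene. Pmvk has 2 RefSeq starts, of which 1 is shown. Capitals mark a sterol regulatory element, searched as TCACNCCAC, or a CCAAT box, searched on both strands (ATTGG on the other strand).
Hmgcs1, chr13:119690101-119690350, plus strand: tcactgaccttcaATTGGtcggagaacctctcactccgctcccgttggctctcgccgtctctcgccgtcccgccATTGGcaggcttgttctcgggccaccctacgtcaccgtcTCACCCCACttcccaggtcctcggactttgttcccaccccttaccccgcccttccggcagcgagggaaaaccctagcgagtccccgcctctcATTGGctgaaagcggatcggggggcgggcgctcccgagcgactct
Pmvk, chr3:89454291-89454540, plus strand: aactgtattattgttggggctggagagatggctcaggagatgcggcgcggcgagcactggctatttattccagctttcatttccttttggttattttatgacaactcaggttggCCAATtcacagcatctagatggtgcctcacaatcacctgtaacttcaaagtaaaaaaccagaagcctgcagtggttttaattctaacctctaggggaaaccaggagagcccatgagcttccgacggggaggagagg
Ebp, chrX:8193513-8193762, minus strand: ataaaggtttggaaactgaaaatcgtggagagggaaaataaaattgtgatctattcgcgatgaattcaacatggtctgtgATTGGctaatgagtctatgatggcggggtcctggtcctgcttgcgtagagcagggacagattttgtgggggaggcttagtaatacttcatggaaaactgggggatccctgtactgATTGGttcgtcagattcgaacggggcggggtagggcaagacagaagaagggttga
Insig1, chr5:28071162-28071362, plus strand: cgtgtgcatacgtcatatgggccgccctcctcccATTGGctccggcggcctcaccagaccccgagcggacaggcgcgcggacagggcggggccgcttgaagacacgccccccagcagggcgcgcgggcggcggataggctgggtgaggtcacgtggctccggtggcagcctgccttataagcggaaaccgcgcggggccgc
Srebf1, most downstream of 3 RefSeq starts, chr11:60210472-60210721, minus strand: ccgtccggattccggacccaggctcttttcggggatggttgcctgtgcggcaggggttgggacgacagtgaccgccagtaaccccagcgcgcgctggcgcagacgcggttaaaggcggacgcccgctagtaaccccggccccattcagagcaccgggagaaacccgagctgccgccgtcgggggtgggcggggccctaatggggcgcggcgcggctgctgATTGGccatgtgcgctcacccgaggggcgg

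Promoter windows of 250 bases before to 50 after the start were on hand for 23 of the 28 members, in 31 windows. The sterol regulatory element as spelled above occurred in 1 of these 31, that of Hmgcs1, where it lies at bases -137 to -129 from the RefSeq start. The end of that window did not match a GENCODE transcript of Hmgcs1, so the distance depends on the start used. The element was found in 1.24% of all 32851 promoter windows and in 1.07% of the 10339 windows of genes tested here. Only this spelling was searched, so other forms of the element would be missed. CCAAT boxes were frequent: 20 of 31 windows held at least 1, against 37.4% of all windows and 38.8% of those of tested genes. By gene, 19 of 23 members had one, as did 44.0% of 8147 tested genes with a window, and Acat2, Scap, Abca1 and Lpin1 had none. Of these, Acat2 and Lpin1 fell with (A/R) platelets. Members called in no comparison, such as Mvd, Lss, Msmo1, Hsd17b7, Sc5d, Insig2 and Srebf2, held CCAAT boxes. Whether the boxes bear on the falls was not tested. The Sp1 box GGGCGG, on either strand, was present in 25 of 31 windows, against 35.7% of all windows and 64.5% of those of tested genes. None of the 3 motifs contains another, and a match describes letters only.

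The libraries held 37465049 to 61366030 counts. In each of them 898 to 1116 genes stood at exactly 4 counts, against 286 to 342 at 3 and 173 to 213 at 5, so about 4 counts appear to make up 1 fragment. Of the 28 members, 27 passed the filter on low values (FPKM of at least 1 in at least 3 libraries) among 11826 genes in all, and the members that passed held 153 to 17314 counts per library. Osteoblast lineage markers summed to 589 to 618 FPKM without treatment, 564 to 592 after platelets and 493 to 503 after (A/R) platelets, with Spp1, Sparc and Col1a2 highest. Their defining members Alpl and Ibsp had 0 counts in all libraries, and Sp7 and Bglap were near 0. Of 14 platelet markers 5 had 0 counts throughout, and the list summed to 3.05 to 4.39, 2.84 to 3.55 and 1.71 to 2.45 FPKM in the same order of groups. Leucocyte markers summed to 2.79 to 8.94 FPKM and red cell markers to 0.838 to 2.70 FPKM over all libraries. The part of these markers in the results below was not tested. In bulk RNA, fewer cells that use a gene and less RNA per cell cannot be told apart.

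In untreated cells the route was expressed throughout, with mean levels of 1.03 to 83.0 FPKM, a unit scaled to transcript length and to depth so that genes can be compared. Acat2, the cytosolic thiolase that starts the route, was highest with a mean of 83.0 ± 14.7 FPKM (SD, n = 3). It was followed by Fdps, which makes farnesyl diphosphate (59.9 ± 3.86), and Npc2, a lysosomal cholesterol carrier (40.3 ± 2.04). Hmgcs1, which makes HMG-CoA (37.3 ± 1.75), Sqle, squalene epoxidase (35.5 ± 4.53), Cyp51, lanosterol demethylase (34.5 ± 1.92), and Mvd (33.5 ± 0.976) differed by less than the spread of Sqle. Lowest among the genes tested was Tm7sf2, a sterol C14 reductase, at 1.03 ± 0.431 FPKM. Abca1, the main exporter of cellular cholesterol, was below the filter: it had 0 counts in 5 of 9 libraries and 4, 7, 8 and 14 counts in the others. A count of 0 allows up to 0.320 CPM, the count scaled to library size, in the library with the fewest counts, taking 3 fragments as the limit for counting error alone, and no fold was computed.

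**Figure D1:**
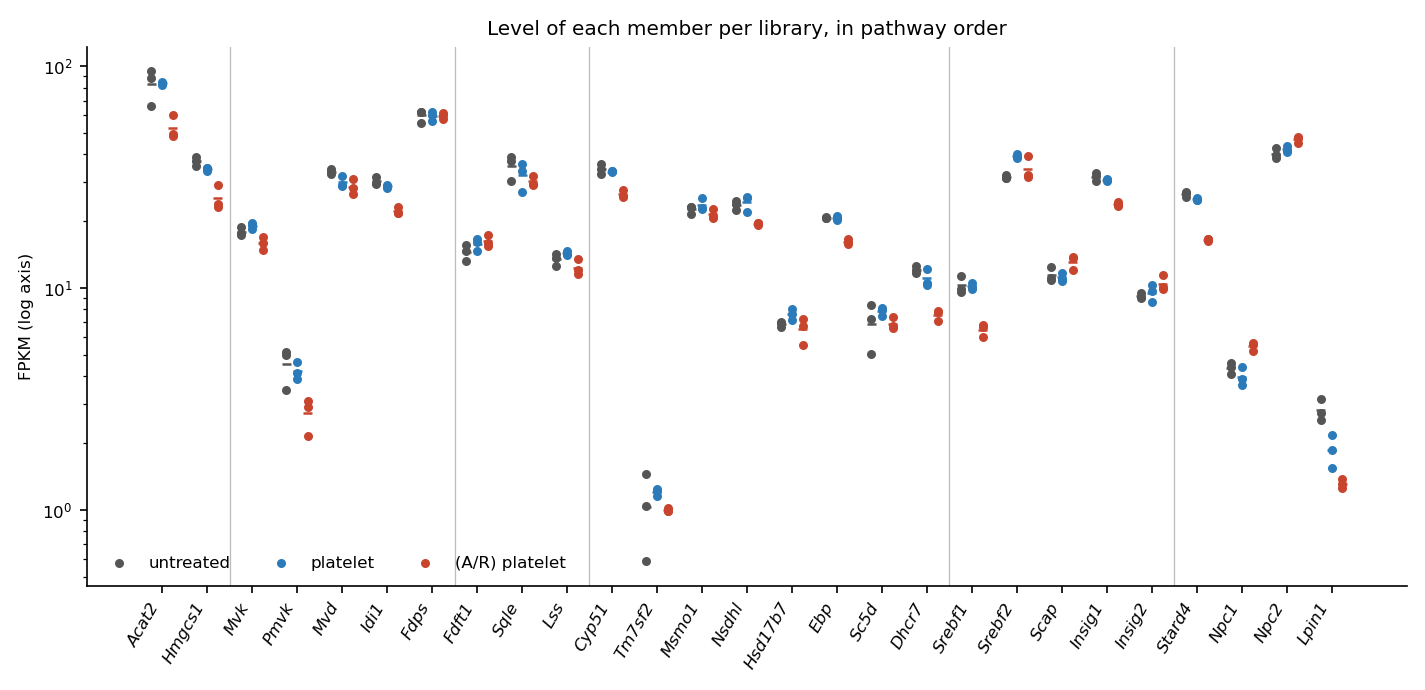
FPKM (log axis) of the 27 tested members in each of the 9 libraries, ordered along the route from Acat2 to Lpin1; points are libraries, short lines group means (n = 3), and grey lines separate the roles. Dhcr7, Srebf1, Ebp and Stard4 sit lower in all 3 (A/R) platelet libraries than in any other library, while Fdps lies at about 60 FPKM in each group.

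(A/R) platelets lowered 12 of the 27 tested members and raised 3 relative to untreated cells, while platelets without this mark moved none past the threshold. The falls were those of Acat2, Hmgcs1, Pmvk, Idi1, Cyp51, Nsdhl, Ebp, Dhcr7, Insig1, Srebf1, Stard4 and Lpin1, and the rises those of Scap, Npc1 and Npc2. Each change was below 2-fold except that of Lpin1, which stood at 0.484 of its untreated level. A gene was called at an adjusted p under 0.05 in edgeR's quasi-likelihood test over all 11826 genes, and 38.8% of them were called in this comparison, 19.5% lower and 19.3% higher. The median log2 fold change was -0.18 over the members and 0.00 over all genes tested. FPKM did not overlap between the groups in 14 lower and 3 higher members, where 29.8% of all genes were lower and 21.4% higher without overlap.

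Relative to platelet treated cells, (A/R) platelets lowered 13 members and raised 3, with a median of -0.23, against 0.00 over all genes. Here 34.3% of all genes were called, 17.1% in each direction. Mvk was called in addition to the members named above; whether its change differed between the comparisons was not tested. Both comparisons use the same (A/R) platelet libraries, so they are not separate evidence. FPKM did not overlap in 16 lower and 3 higher members (27.6% and 21.3% of all genes).

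For platelets against untreated cells, 0 of 27 members passed edgeR's test, where 0.262% of all genes did (0.211% higher and 0.0507% lower). At an unadjusted p under 0.05 the count was 2, Srebf2 and Lpin1, or 7.41% of the members against 12.9% of all genes. DESeq2 called those 2, and 1.88% of all genes. By contrast limma called 0 members on log2(FPKM + 1), on log2(FPKM + 0.1) and on quantile-normalised counts. Those limma fits called 0.262%, 0.211% and 0.288% of all genes. The median over members was 0.00, with values from -0.58 to 0.33. FPKM did not overlap in 2 higher members, Hsd17b7 and Srebf2, and 5 lower ones, Hmgcs1, Mvd, Idi1, Stard4 and Lpin1, against 8.16% and 11.2% of all genes.

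**Figure D2:**
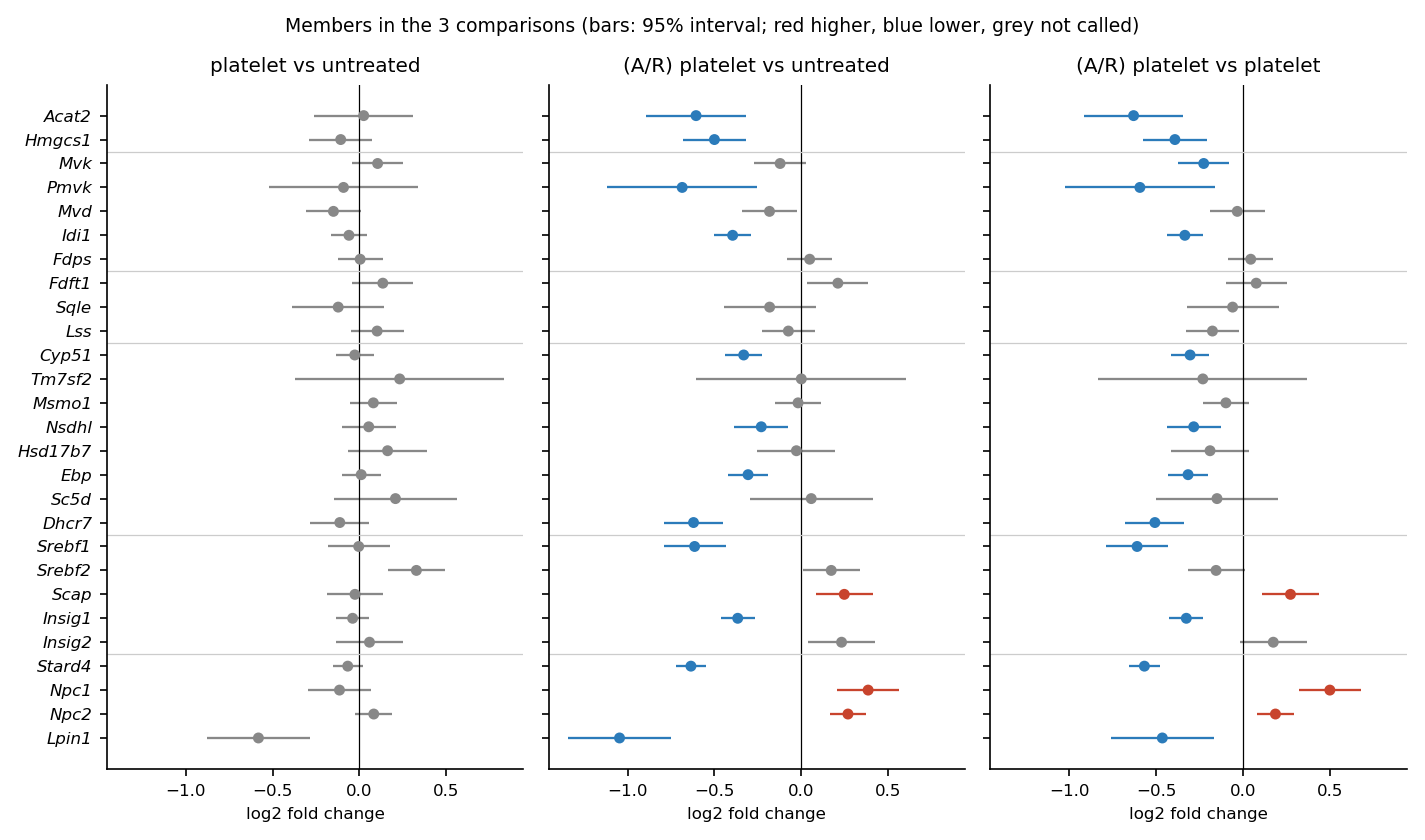
Log2 fold change of the 27 tested members in the 3 comparisons with 95% intervals; red marks genes called higher, blue genes called lower and grey genes not called by edgeR. The middle and right panels, which share the (A/R) platelet libraries, show blue points among the genes of each role except squalene to lanosterol. The left panel shows none.

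Both genes of the first steps, Acat2 and Hmgcs1, fell with (A/R) platelets. Acat2 measured 66.4, 88.0 and 94.6 FPKM without treatment in replicates 1 to 3, 84.6, 82.6 and 83.5 after platelets and 49.2, 48.3 and 60.5 after (A/R) platelets. The (A/R) platelet libraries lay below all others, although untreated replicate 1 came close to them. Its log2 fold change was -0.61 ± 0.126 (SE) against untreated (adjusted p 0.00486) and -0.63 ± 0.126 against platelet (0.00440). Acat2 has a similar neighbour, Acat3, which held 378 to 1224 counts against 6309 to 13583 for Acat2, and reads shared by both cannot be assigned with certainty. Hmgcs1 measured 37.5, 35.4 and 38.9 FPKM without treatment, 34.6, 33.6 and 34.6 after platelets and 23.2, 23.9 and 29.2 after (A/R) platelets. The last group lay lowest, with its replicate 3 nearest to the others, as for Acat2. The change of Hmgcs1 was -0.50 ± 0.081 against untreated (adjusted p 0.00120) and -0.39 ± 0.081 against platelet (0.00500). Together these genes summed to 120 ± 15.0 FPKM without treatment, 118 ± 1.55 after platelets and 78.1 ± 10.0 after (A/R) platelets.

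From mevalonate to isoprenoids, 2 of 5 enzymes fell against untreated cells and 3 against platelet treated cells. Idi1, the isomerase that yields dimethylallyl diphosphate, measured 29.6, 29.5 and 31.8 FPKM without treatment, 29.2, 28.8 and 28.4 after platelets and 21.7, 21.8 and 23.2 after (A/R) platelets. All (A/R) platelet values were below all others, and the change was -0.40 ± 0.046 against untreated (adjusted p 0.000199) and -0.34 ± 0.046 against platelet (0.000606). Pmvk, phosphomevalonate kinase, measured 3.48, 5.15 and 5.00 FPKM without treatment, 4.16, 4.62 and 3.89 after platelets and 2.16, 3.10 and 2.90 after (A/R) platelets. It fell against untreated (-0.69 ± 0.191, adjusted p 0.0193) and against platelet (-0.59 ± 0.190, 0.0387). At 188 to 537 counts per library Pmvk was thinly covered, and its first call was lost without untreated replicate 2 or 3, or else (A/R) platelet replicate 1 (adjusted p up to 0.0643). Its call against platelet was lost without any 1 of the 3 platelet libraries, or without (A/R) platelet replicate 1 or 3 (up to 0.115).

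Mvk, mevalonate kinase, measured 17.6, 18.8 and 17.3 FPKM without treatment, 19.6, 19.3 and 18.4 after platelets and 16.9, 15.9 and 14.9 after (A/R) platelets. It fell against platelet (-0.23 ± 0.065, adjusted p 0.0251), a call lost without platelet replicate 1 or 2, or else (A/R) platelet replicate 2 or 3 (up to 0.0926). Against untreated its value was -0.12 ± 0.065 (0.177), which limma on FPKM called (0.0477 and 0.0480). Mvd, the decarboxylase of mevalonate diphosphate, was at -0.18 ± 0.069 against untreated (adjusted p 0.0654) and -0.03 against platelet (0.757), so that neither passed. The first was called without (A/R) platelet replicate 3 (-0.24, 0.0312), under upper-quartile scaling (0.0481), with a filter at 5 FPKM (0.0376) and by limma on FPKM (0.0229 and 0.0234). Fdps stayed between 55.5 and 62.4 FPKM in all 9 libraries. Its log2 fold change was 0.05 against untreated, with a 95% interval of -0.08 to 0.18.

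The steps from squalene to lanosterol held no call in any comparison. Fdft1, squalene synthase, was at 14.5 ± 1.22 FPKM (SD, n = 3) without treatment, 15.8 ± 1.03 after platelets and 16.2 ± 0.908 after (A/R) platelets. Its log2 fold change with (A/R) platelets was 0.21 ± 0.078 (SE; adjusted p 0.0591), and it was called without untreated replicate 2 (0.0348) or platelet replicate 2 (0.0498) and by DESeq2 (0.0457). Fdft1 overlaps Ctsb, a cathepsin gene on the other strand, by 774 bases. Ctsb held 667% as many counts as Fdft1, and without knowledge of the strand their reads there cannot be told apart. Sqle varied widely within groups, from 30.4 to 39.0 FPKM without treatment, 27.0 to 36.1 after platelets and 29.2 to 32.1 after (A/R) platelets, and its value of -0.18 ± 0.117 did not pass (0.257). Lss, lanosterol synthase, was at -0.07 against untreated (0.431) and -0.18 against platelet (0.0737), a value called without (A/R) platelet replicate 2 (-0.24, 0.0203) and under upper-quartile scaling and 3 limma fits (0.0207 to 0.0452).

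Of the 8 enzymes that turn lanosterol into cholesterol, 4 fell with (A/R) platelets in each comparison: Cyp51, Nsdhl, Ebp and Dhcr7. Dhcr7, which catalyses the reduction of 7-dehydrocholesterol to cholesterol, measured 11.6, 12.5 and 12.1 FPKM without treatment, 10.4, 10.6 and 12.2 after platelets and 7.09, 7.87 and 7.76 after (A/R) platelets. The lowest value outside the (A/R) platelet group was thus well above the highest inside it. Its change was -0.62 ± 0.075 against untreated (adjusted p 0.000233) and -0.51 ± 0.075 against platelet (0.000862). Ebp, the sterol isomerase, was very even within groups, with 20.8, 20.8 and 20.6 FPKM without treatment, 20.8, 20.3 and 21.0 after platelets and 16.6, 15.8 and 16.2 after (A/R) platelets. It fell by 0.31 on the log2 scale against untreated (adjusted p 0.00127) and by 0.32 against platelet (0.00123).

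Cyp51 measured 32.5, 34.5 and 36.3 FPKM without treatment, 33.5, 33.6 and 33.3 after platelets and 25.7, 25.9 and 27.7 after (A/R) platelets. The (A/R) platelet libraries lay below all others, while the other groups overlapped, and the change was -0.33 ± 0.048 against untreated (adjusted p 0.000640) and -0.30 ± 0.048 against platelet (0.00121). Nsdhl, which removes the C4 carboxyl group of the sterol, measured 22.4, 24.7 and 23.9 FPKM without treatment, 25.8, 21.9 and 25.4 after platelets and 19.6, 19.3 and 19.6 after (A/R) platelets. It fell by 0.23 against untreated (adjusted p 0.0268), a call lost without untreated replicate 2 or 3 or any 1 of the (A/R) platelet libraries (up to 0.0793), and by 0.28 against platelet (0.0115). The methyl oxidase Msmo1 (-0.02), Hsd17b7 (-0.03), Sc5d (0.06) and Tm7sf2 (0.00) were not called against untreated, at adjusted p of 0.805 to 0.999. Sc5d and Tm7sf2 ranged from 5.03 to 8.36 and from 0.587 to 1.45 FPKM within the untreated group. Their 95% intervals of the log2 fold change, -0.30 to 0.41 and -0.60 to 0.60, were wide. Cyp51 overlaps Akap9 on the other strand by 166 bases and Tm7sf2 overlaps Vps51 on its own strand by 9, so reads there are uncertain. Summed over all 18 enzymes, the level was 458 ± 27.6 FPKM (SD, n = 3) without treatment, 452 ± 11.6 after platelets and 372 ± 16.1 after (A/R) platelets.

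**Figure D3:**
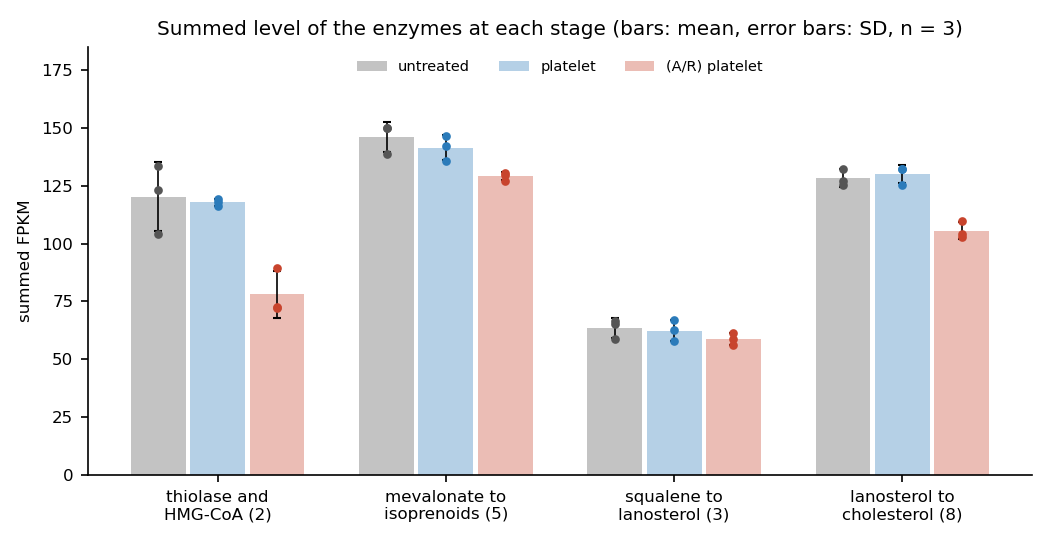
Summed FPKM of the enzymes at 4 stages of the route, with the number of genes in brackets; bars are means, error bars SD (n = 3) and points libraries. The (A/R) platelet libraries lie below all others at 3 of the stages, whereas at the squalene to lanosterol stage (56.2 to 61.4 against 57.8 to 67.0) the groups overlap.

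The regulators moved in different directions. Srebf1, which encodes SREBP1, measured 11.3, 9.90 and 9.64 FPKM without treatment, 10.1, 9.90 and 10.5 after platelets and 6.65, 6.79 and 5.99 after (A/R) platelets. It was clearly lowest in the last group, at -0.61 ± 0.079 against untreated (adjusted p 0.000340) and -0.61 ± 0.079 against platelet (0.000418). Srebf1 overlaps Rai1 on the other strand by 109 bases. Insig1, a sterol-dependent anchor of SCAP, measured 32.9, 31.9 and 30.5 FPKM without treatment, 30.9, 30.5 and 30.4 after platelets and 23.5, 23.5 and 24.4 after (A/R) platelets. It fell by 0.37 against untreated (0.000199) and by 0.33 against platelet (0.000458). Its relative Insig2 was not called, with 9.45, 9.14 and 9.05 FPKM without treatment, 10.3, 9.65 and 8.62 after platelets and 11.4, 10.1 and 9.87 after (A/R) platelets (0.23 ± 0.086 against untreated, adjusted p 0.0589, or 0.0454 without platelet replicate 3 and 0.0457 by DESeq2).

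Srebf2, which encodes SREBP2 itself, was highest in the platelet group. It measured 32.2, 31.2 and 31.4 FPKM without treatment, 39.0, 38.7 and 40.2 after platelets and 32.4, 31.7 and 39.2 after (A/R) platelets. The platelet libraries all lay above the untreated ones, and (A/R) platelet replicate 3 stood with the platelet group while replicates 1 and 2 stood with the untreated. The log2 fold change of platelet against untreated was 0.33 ± 0.073 and did not pass (adjusted p 0.142). Since all 9 libraries share 1 estimate of the spread, (A/R) platelet replicate 3 decides this call: without it the adjusted p was 0.0222, and in the 6 libraries of the comparison alone 0.0486. DESeq2 gave 0.00747, and over the 20 alternatives the adjusted p ranged from 0.00747 to 0.340. With (A/R) platelets Srebf2 was at 0.17 ± 0.073 against untreated (0.0906) and -0.16 ± 0.073 against platelet (0.133). The same library again decided the latter, which without it was -0.25 (0.00363). The former reached 0.23 and was called without (A/R) platelet replicate 2 (0.0447).

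Scap measured 12.4, 10.9 and 11.1 FPKM without treatment, 10.8, 11.7 and 10.96 after platelets and 13.6, 13.7 and 12.1 after (A/R) platelets. It rose against untreated (0.25 ± 0.072, adjusted p 0.0236) and against platelet (0.27 ± 0.072, 0.0170), although untreated replicate 1 lay above (A/R) platelet replicate 3. The call against untreated was lost without untreated replicate 2 or 3, or else (A/R) platelet replicate 1 or 2 (up to 0.0740). That against platelet was lost without platelet replicate 1 or 3, or else (A/R) platelet replicate 1 or 2 (up to 0.0564).

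**Figure D4:**
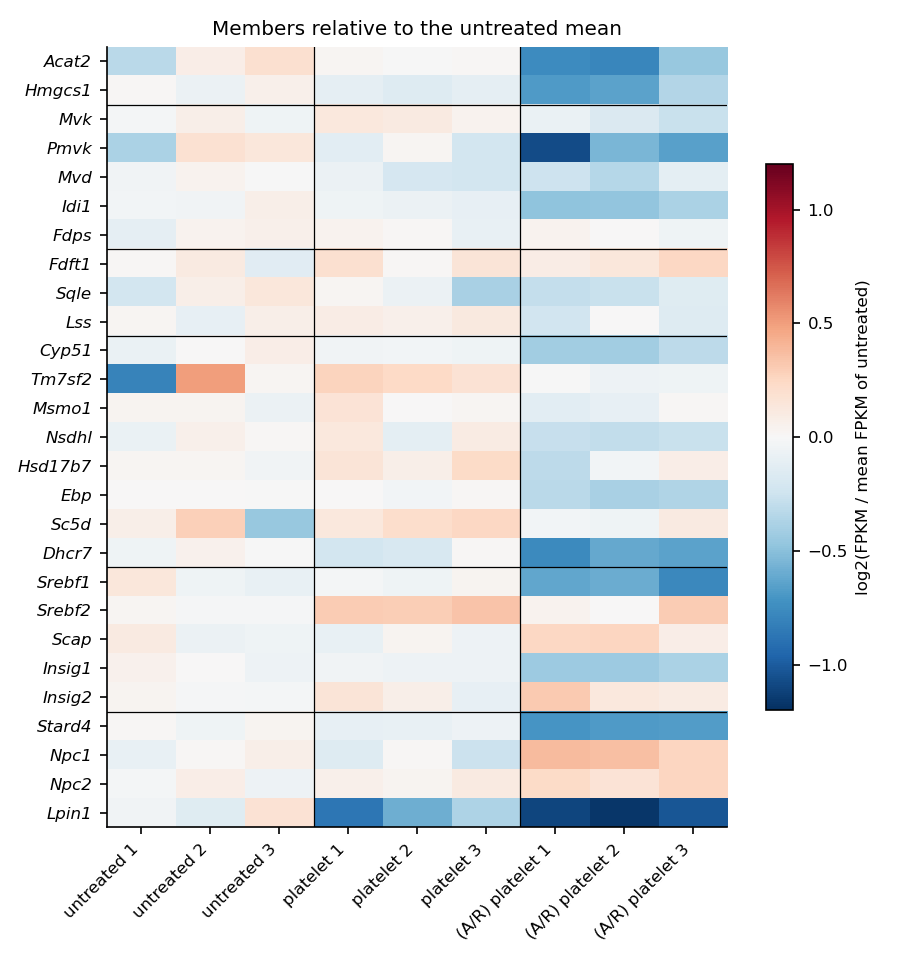
Log2 ratio of the FPKM in each library to the mean of the untreated libraries, for the 27 tested members; black lines separate roles and groups. The members that fell with (A/R) platelets are blue in the last 3 columns. So are some members not called against untreated, such as Mvd, Sqle and Mvk. Npc1 and Npc2 are red there, as is Insig2, which was not called. Srebf2 is red in the 3 platelet columns and in (A/R) platelet replicate 3.

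Among the genes of transport, Stard4 had the smallest p of all members. This gene for a cytosolic sterol carrier measured 26.9, 25.6 and 27.2 FPKM without treatment, 24.8, 25.0 and 25.5 after platelets and 16.2, 16.6 and 16.7 after (A/R) platelets. The (A/R) platelet libraries lay below all others by far more than the spread within a group, with -0.64 ± 0.039 against untreated (adjusted p 5.3e-06) and -0.57 ± 0.039 against platelet (1.2e-05). Npc1 and Npc2, which together export cholesterol from lysosomes, moved the other way. Npc1 measured 4.09, 4.39 and 4.57 FPKM without treatment, 3.90, 4.39 and 3.64 after platelets and 5.66, 5.59 and 5.21 after (A/R) platelets. It rose by 0.39 ± 0.079 against untreated (adjusted p 0.00444) and 0.50 ± 0.079 against platelet (0.00127), and 84.8% of all tested genes had a value at or below the first. Npc1 overlaps Rmc1 on the other strand by 967 bases, and Rmc1 held 31.4% as many counts. Npc2 measured 39.7, 42.6 and 38.6 FPKM without treatment, 42.1, 41.2 and 43.5 after platelets and 47.4, 45.1 and 48.2 after (A/R) platelets. Its rise was 0.27 ± 0.047 against untreated (0.00185) and 0.19 ± 0.047 against platelet (0.0136).

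Lpin1, a phosphatidate phosphatase and coactivator whose promoter is a known SREBP target, showed the largest fall of the 27 tested members against untreated cells. It measured 2.73, 2.53 and 3.17 FPKM without treatment, 1.55, 1.87 and 2.17 after platelets and 1.31, 1.25 and 1.38 after (A/R) platelets. None of the 3 groups overlapped. Against untreated the change with (A/R) platelets was -1.05 ± 0.132 (adjusted p 0.000303). Platelets without the mark gave -0.58 ± 0.131, which did not pass (0.148, and 0.00587 with DESeq2). The step from platelet to (A/R) platelet was -0.46 ± 0.132 (0.0232), a call lost without platelet replicate 2 or 3, or else (A/R) platelet replicate 1 or 2 (up to 0.0790).

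Other genes of sterol handling were grouped in lists chosen by function, and their counts with (A/R) platelets are read against the 38.8% of all genes called against untreated and 34.3% against platelet. Among 17 neighbours of the route in sterol and isoprenoid metabolism, 1 rose and 1 fell against untreated cells with (A/R) platelets: Coq2, an enzyme of ubiquinone synthesis (0.42), and Lbr, the second sterol C14 reductase (-0.21). Against platelet 1 rose, Coq2 (0.54), and 2 fell, Lbr (-0.19) and the acetoacetyl-CoA synthetase Aacs (-0.20). The list median was 0.01 against untreated and -0.06 against platelet. Of 13 genes of SREBP processing and sterol sensing, all tested, 4 rose and 3 fell against untreated. Mbtps2, the site 2 protease that frees SREBP in the membrane, rose by 0.72 from 3.17 ± 0.353 to 5.04 ± 0.109 FPKM (SD, n = 3). Erlin1, which takes part in sterol-driven degradation at the endoplasmic reticulum, rose by 0.71, and the ubiquitin ligase Rnf145 fell by 0.45. Against platelet 4 rose and 2 fell in that list, with Erlin1 at 0.58 and Mbtps2 at 0.56. Its medians were -0.03 and -0.01.

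Of 22 tested genes of sterol transport, storage and efflux 8 rose and 6 fell against untreated (median 0.005), and 9 rose and 5 fell against platelet (median -0.03). Abcg1, a sterol exporter and target of the oxysterol receptor LXR, fell from 2.66 ± 0.030 to 1.15 ± 0.058 FPKM (-1.16 against untreated and -1.04 against platelet). Lipa, the lysosomal acid lipase, fell (-0.91 against untreated), and Soat1, which esterifies cholesterol for storage, rose (0.76). Against platelet the largest rises were those of Stard5, a sterol-binding protein (1.16), and Vldlr, a lipoprotein receptor (0.81). Among 12 tested fatty acid genes of SREBP1, 2 rose and 4 fell in each of these comparisons (medians -0.13 and -0.04). Elovl6, a fatty acid elongase, fell from 22.6 ± 1.07 to 11.5 ± 0.391 FPKM (-0.92 against untreated and -0.88 against platelet) and Scd2, a desaturase, by 0.79 and 0.61, while Mid1ip1, an activator of acetyl-CoA carboxylase, rose by 0.41 against untreated. Fasn, fatty acid synthase, fell by 0.37 against platelet. In the comparison of platelet with untreated cells, 0 of the 64 tested genes in these 4 lists passed edgeR's test, 5 (7.81%, against 12.9% of all genes) had an unadjusted p under 0.05, and the list medians lay between -0.10 and 0.02.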

How the data were processed

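Total RNA went into SMARTER mRNA-Seq libraries, per the labels' protocols. The authors deposited 1 table with FPKM and estimated counts per gene for 9 libraries. Per the submitters' processing notes, reads were placed on GRCm38 (mm10). How reads were aligned and counted, and whether strand was used, is not given in the sources used here. In the deposited FPKM, Abca1 with 0 counts is listed at 0.0001. The deposited counts are whole numbers that pile up at 4, so 1 fragment appears to add about 4 counts, and they needed no rounding.

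Genes with FPKM of at least 1 in at least 3 libraries were tested (11826) with edgeR 4.0.16 in R 4.3.3, with TMM scaling, 1 mean per group, 9 libraries in 1 fit and Benjamini-Hochberg adjustment over all genes. The SE is the log2 fold change divided by the square root of F, and intervals use the t distribution of the test. The fit was tested on simulated counts. Alternatives used limma 3.58.1 and DESeq2 1.42.0. Members and lists were chosen with earlier results of these data known. Every member is described; in the other lists the 3 largest called changes are named, save 1 that is not reported here, and the list gene March6 is Marchf6 in the table; these lists do not hold every gene of the pathway. No pair of replicates was a repeat deposit (mean chi-square per gene 9.20 to 16.4). Promoters were read from a RefSeq table; 27 of 31 windows ended in a GENCODE M21 transcript of their gene. The table had no entry used here for Fdps, Fdft1, Sqle, Stard4 and Npc1.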

Additional observations from a re-analysis of the deposited data

How the results depend on the processing

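In all, 20 alternatives were run. With (A/R) platelets, members called numbered 12 to 17 against untreated and 13 to 17 against platelet. Of the 12 falls against untreated, 10 were called in every alternative that tested them, as were 10 of 13 against platelet, and Npc1 and Npc2 in both comparisons. No called member changed sign. For platelet against untreated, DESeq2 called 2 members and 222 genes (1.88%), and the fit of 6 libraries 1 member and 18 genes (0.152%). Leaving out 1 library gave 0 to 1 member (1 without (A/R) platelet replicate 3) and 18 to 26 genes (18 without platelet replicate 3). The share of all genes was then 0.152% to 0.22%. Without a filter, Mvk (0.0846) and Pmvk (0.0701) were not called against platelet. Replicate numbers did not pair the libraries (correlations of same-numbered deviations -0.03 to 0.05); with the replicate number as a block, 0 genes were called for platelet against untreated, where the cause was not tested, and 15 and 16 members in the other comparisons. The block ended the call of Nsdhl against untreated (adjusted p 0.0517) and gave one to Insig2 (0.0419). Scap was not called against untreated by limma on FPKM (0.0640 and 0.0643) or in the 6 libraries compared (0.0508), nor Nsdhl without a filter (0.0809), nor Pmvk after quantile normalization, an alternative added after seeing the data (0.0586). Tm7sf2 and Pmvk had the fewest counts among the tested members. No scaling moved the median of all genes by 0.1.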
